A study of Homo sapiens with 3 samples.

Results

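The hepatocyte transcription factors HNF4A, FOXA1, FOXA2, FOXA3, CEBPA, CEBPB, ONECUT1 and PROX1 were followed across 3 human hepatocellular carcinoma (HCC) cell lines. The 8 genes were selected by symbol, with earlier results of these data known, from the 16149 genes listed in at least 1 library. All 8 were listed in both subclones and 7 of them in the parental cells, where ONECUT1 was not listed. The mRNA level was taken as RPKM, reads per kilobase of transcript scaled to the library total, so that levels can be set side by side between genes of different length. Of the 8 members, 6 had a mean of at least 1 RPKM over the libraries, whereas FOXA3 and ONECUT1 stayed below that level.

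All 3 cell populations came from HCCLM3, an established human HCC line with metastatic ability, and were grown in DMEM. The parental cells were labelled as low in metastasis, whereas the study's methods describe its parental line, HCCLM3-R, as high in metastatic potential. HCCLM3-R carried a red fluorescent protein, and the study's clones were derived from it. Subclone 1 was labelled with raised, lung-directed metastasis and subclone 2 with metastasis to both lung and celiac lymph node. Both were single-cell clones raised from metastases in nude mice, each standing for 1 clone, and which named clone each one is was not matched here. Each line was sequenced as 1 library, so the values compare libraries rather than metastatic abilities, and no test between lines was possible. The intervals given are exact 95% intervals on reads recovered from the RPKM and cover counting error only.

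Hepatocyte identity is held by a small network of transcription factors that bind one another's promoters and enhancers. HNF4A, a nuclear receptor, is the hub of that network and is needed for expression of apolipoprotein and clotting factor genes. The FOXA proteins are forkhead pioneer factors that open chromatin at liver enhancers. C/EBP alpha and beta are leucine zipper factors of metabolic and acute-phase genes. ONECUT1, a cut-homeodomain factor also called HNF6, and PROX1, a homeodomain factor of hepatoblasts and of lymphatic endothelium, act in the growth and patterning of the liver.

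HNF4A is transcribed from 2 promoters, the distal P2 and the proximal P1, of which P1 is the one used in adult hepatocytes. RefSeq gives a start at each on chromosome 20 of GRCh38.p14, plus strand, and the 250 bases before each start are shown because the gene-level RPKM joins transcripts of both. The distal window is chr20:44355449-44355698 and the proximal one is chr20:44400989-44401238. FOXA1, which of the 6 members with a mean of at least 1 RPKM differed most between subclone 2 and the parent, is shown with the 250 bases before its RefSeq start at chr14:37595250-37595499, minus strand. Capitals mark matches to the motifs described after the sequences.
HNF4A distal: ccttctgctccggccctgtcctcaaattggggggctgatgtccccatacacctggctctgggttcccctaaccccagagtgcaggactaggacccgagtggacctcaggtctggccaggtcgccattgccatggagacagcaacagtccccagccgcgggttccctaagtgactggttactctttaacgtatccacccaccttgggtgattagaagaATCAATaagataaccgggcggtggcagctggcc
HNF4A proximal: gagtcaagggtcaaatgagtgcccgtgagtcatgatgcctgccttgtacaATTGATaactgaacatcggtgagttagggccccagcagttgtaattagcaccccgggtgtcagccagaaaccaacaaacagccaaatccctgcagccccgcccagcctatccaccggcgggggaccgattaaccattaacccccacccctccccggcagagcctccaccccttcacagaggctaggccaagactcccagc
FOXA1: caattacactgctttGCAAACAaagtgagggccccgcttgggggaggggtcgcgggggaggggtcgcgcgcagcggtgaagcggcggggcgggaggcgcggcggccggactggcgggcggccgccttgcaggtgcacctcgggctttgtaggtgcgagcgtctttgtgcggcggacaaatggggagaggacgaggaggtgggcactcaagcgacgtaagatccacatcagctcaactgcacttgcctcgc

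The motifs were searched on both strands, and RefSeq promoters were found for 6 of the 8 members, with 8 windows in all. The ONECUT motif, ATTGAT, matched once in each HNF4A window, 33 bases before the distal and 200 bases before the proximal start, and 5.58% of 35116 promoters held it. The FOXA motif, TGTTTNC, matched 235 bases before the FOXA1 start and was held by 15.5% of promoters. TATAAA, the TATA box, matched before the starts of CEBPA, CEBPB and FOXA3 and was held by 10.7% of promoters. The HNF4 motif, CAAAGTNCA, with 0.94% of promoters, and the C/EBP motif, TTGCNNAA, with 9.05%, had no match in the 8 windows. No motif overlapped another in the windows shown, and a match is a description of letters and not a binding site.

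The libraries were of similar size, the parental one with 4488825 reads, that of subclone 1 with 4609696 and that of subclone 2 with 4725150. The members together held 108 RPKM in the parent, 116 RPKM in subclone 1 and 143 RPKM in subclone 2. CEBPA had the highest level of the 8 in every library, followed by CEBPB. FOXA2 stood next in all 3 libraries, and in subclone 2 its interval overlapped that of FOXA1. HNF4A came after FOXA2 in the parent and in subclone 1, and in subclone 2 it stood below FOXA1. PROX1 came below these in each library, and FOXA3 and ONECUT1 closed the order. Neighbours with overlapping intervals were CEBPA and CEBPB, and PROX1 and FOXA3, in the parent. In subclone 1 they were HNF4A and FOXA1, PROX1 and ONECUT1, and ONECUT1 and FOXA3. In subclone 2 they were FOXA2 and FOXA1, and FOXA3 and ONECUT1.

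**Figure D1:**
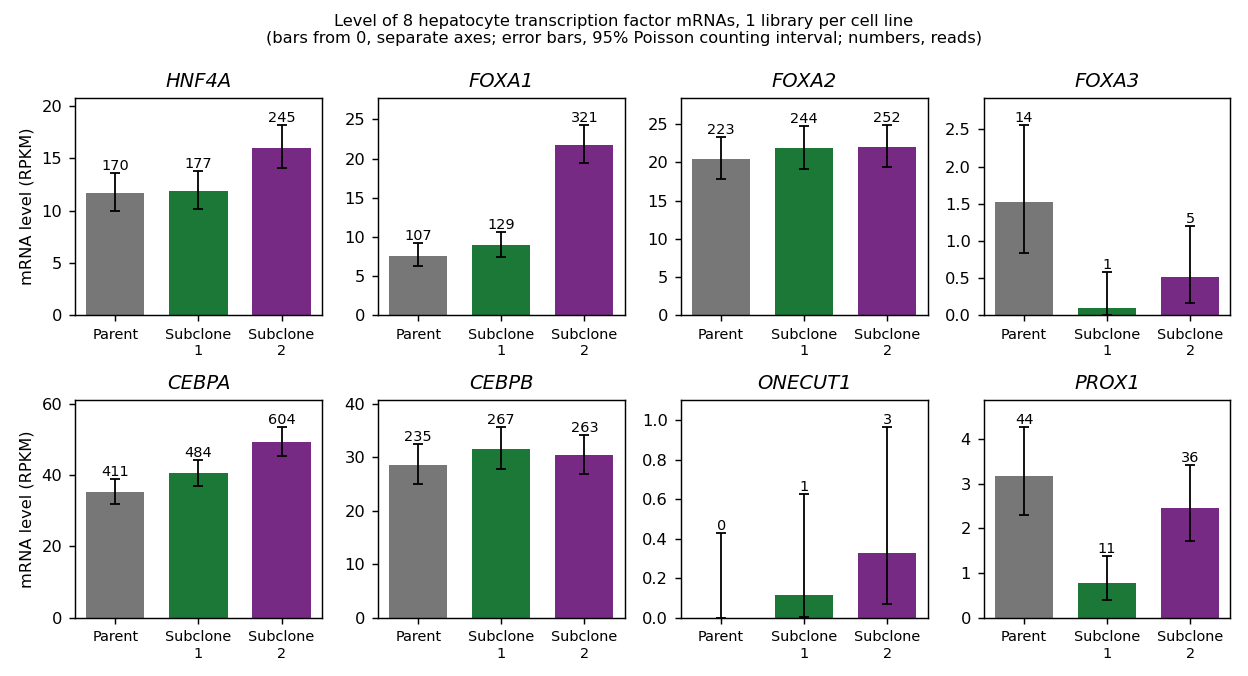
mRNA level in RPKM of each of the 8 transcription factors in the parental cells, subclone 1 and subclone 2, 1 library each, with bars from 0 on separate axes, the 95% Poisson counting interval as error bars and the number of reads above each bar. FOXA1 stood at 21.7 RPKM in subclone 2 against 7.63 RPKM in the parent and 8.96 RPKM in subclone 1, PROX1 and FOXA3 were lowest in subclone 1, and FOXA2 and CEBPB were at similar levels in all 3.

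FOXA1 was the 1 member at least 2-fold above both other libraries in subclone 2 among those with a mean of at least 1 RPKM. Its level was 7.63 RPKM (6.25–9.22, 107 reads) in the parent, 8.96 RPKM (7.48–10.6, 129 reads) in subclone 1 and 21.7 RPKM (19.4–24.3, 321 reads) in subclone 2. The interval of subclone 2 lay above those of the other two libraries, which overlapped each other. The fold of subclone 2 was 2.85 (2.28–3.58) over the parent and 2.43 (1.97–3.00) over subclone 1, whereas subclone 1 was 1.17-fold (0.902–1.53) the parent. Among the 11370 genes with a mean of at least 1 RPKM, the log2 ratio of FOXA1 for subclone 2 was above that of 97.5% against the parent and of 99.2% against subclone 1. These 2 comparisons share the subclone 2 library. Of the genes next to FOXA1 on chromosome 14, MIPOL1 was at 1.56, 1.45 and 1.68 RPKM in the parent, subclone 1 and subclone 2, TTC6 was not listed, and SLC25A21 and SSTR1 had at most 7 reads in any library.

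FOXA2, the FOXA member needed with FOXA1 for the onset of liver development, differed little between libraries. It stood at 20.5 RPKM (17.9–23.3, 223 reads) in the parent, 21.8 RPKM (19.2–24.7, 244 reads) in subclone 1 and 22.0 RPKM (19.3–24.9, 252 reads) in subclone 2. All 3 intervals overlapped. Relative to the parent, subclone 1 stood at 1.07-fold (0.885–1.28) and subclone 2 at 1.07-fold (0.893–1.29), so that differences beyond those bounds were not seen with counting error alone. NKX2-2, the gene beside FOXA2 that was listed, was at 4.36, 4.56 and 2.12 RPKM, a ratio to the parent of 0.487 (0.273–0.843) in subclone 2, and PAX1 and SSTR4 were not listed. LINC00261, the non-coding RNA transcribed beside FOXA2 and picked after its values were seen, was at 3.12, 2.42 and 2.28 RPKM.

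FOXA3, the third paralog, was near the limit of detection. It was read 14 times in the parent (1.52 RPKM, 0.833–2.56), 1 time in subclone 1 (0.106 RPKM, 0.0027–0.591) and 5 times in subclone 2 (0.517 RPKM, 0.168–1.21). The parental interval lay above that of subclone 1 and overlapped that of subclone 2. Relative to the parent, subclone 1 had a ratio of 0.0696 (0.0016–0.457) and subclone 2 one of 0.339 (0.0956–0.997), sizes that rest on few reads. With 0.1 RPKM added, FOXA3 showed the largest pair of log2 ratios to the parent among the 8 members, −2.98 in subclone 1 and −1.40 in subclone 2. With 0.01 RPKM added, ONECUT1 came first, at 3.62 and 5.09 against −3.73 and −1.54 for FOXA3. These ONECUT1 values rest on 0, 1 and 3 reads, and the intervals of both its ratios to the parent include 1. With 0.1 RPKM added, the 3 genes whose pair of ratios was nearest to that of FOXA3 over these libraries were MAOB, CEACAM6 and BCAT1. MAOB is a monoamine oxidase, CEACAM6 a cell adhesion protein of epithelia and BCAT1 an aminotransferase of branched-chain amino acids. MAOB was at 28.1, 3.91 and 10.1 RPKM, CEACAM6 at 328, 41.3 and 142 RPKM, and BCAT1 at 2.21, 0.202 and 0.918 RPKM in the parent, subclone 1 and subclone 2. SYMPK and IRF2BP1, which lie beside FOXA3 on chromosome 19, had ratios to the parent whose intervals included 1 in both subclones. MYPOP, the gene beyond IRF2BP1, was at 11.6, 7.27 and 10.2 RPKM, a ratio of 0.630 (0.452–0.871) in subclone 1, and RSPH6A was not listed.

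The balance within the FOXA family differed in subclone 2. The summed level of the 3 paralogs was 29.6 RPKM in the parent, 30.9 RPKM in subclone 1 and 44.2 RPKM in subclone 2. FOXA1 made up 25.8%, 29.0% and 49.2% of it in that order, and FOXA2 69.1%, 70.6% and 49.7%. A ratio within a library does not depend on the scaling between libraries. For FOXA1 over FOXA2 it was 0.373 (0.293–0.472) in the parental cells, and the subclones stood at 0.411 (0.329–0.511) and 0.990 (0.837–1.17). In subclone 2 it exceeded the parental ratio 2.65-fold (1.98–3.56) and that of subclone 1 2.41-fold (1.82–3.19). Between subclone 1 and the parent the ratio of ratios was 1.10 (0.795–1.53), an interval that includes 1.

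**Figure D2:**
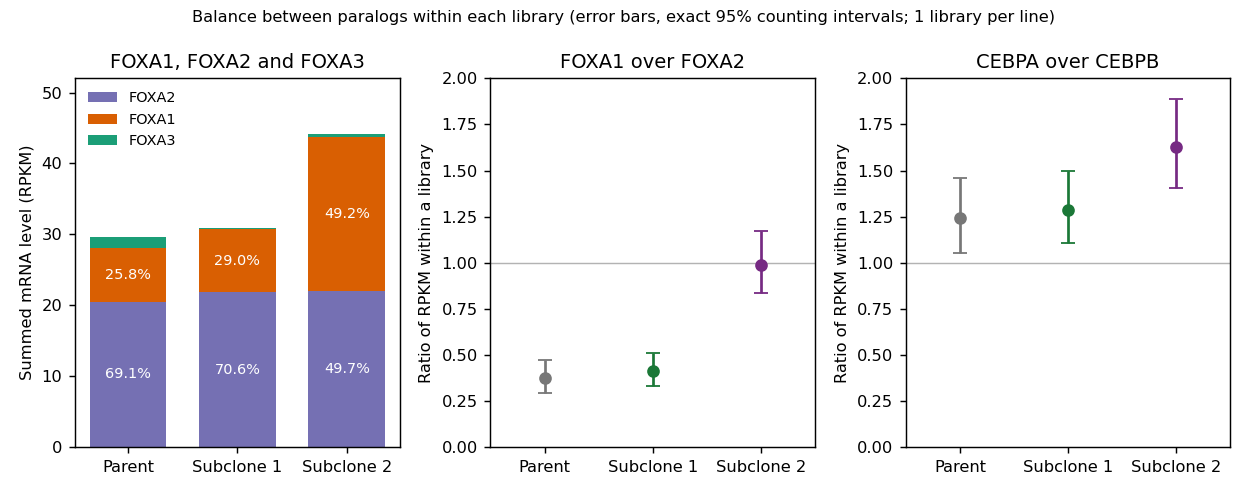
Left, RPKM of FOXA1, FOXA2 and FOXA3 stacked per library, with percent shares of the sum. Middle and right, the FOXA1 to FOXA2 and the CEBPA to CEBPB ratio of RPKM within each library with exact 95% counting intervals: FOXA1 over FOXA2 was 0.373 in the parent and 0.990 in subclone 2, and CEBPA over CEBPB was 1.24 and 1.63.

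HNF4A was somewhat higher in subclone 2 than in the other libraries. Its level was 11.7 RPKM (10.0–13.6, 170 reads) in the parent, 11.9 RPKM (10.2–13.7, 177 reads) in subclone 1 and 16.0 RPKM (14.1–18.1, 245 reads) in subclone 2. The parent and subclone 1 could hardly be told apart, and the interval of subclone 2 started above both. The fold of subclone 2 was 1.37 (1.12–1.67) over the parent and 1.35 (1.11–1.65) over subclone 1, and that of subclone 1 over the parent was 1.01 (0.817–1.26). Its ratio to CEBPA was 0.331 (0.275–0.397), 0.293 (0.245–0.348) and 0.324 (0.279–0.377) in the parent, subclone 1 and subclone 2. Against FOXA2 the ratio was 0.571 (0.465–0.701), 0.544 (0.446–0.663) and 0.729 (0.609–0.872). TTPAL, the next gene on chromosome 20, was at 8.32, 5.97 and 5.38 RPKM, a ratio to the parent of 0.718 (0.586–0.878) and 0.647 (0.525–0.795). SERINC3 was at 58.8, 69.0 and 64.3 RPKM, a fold of 1.17 (1.06–1.30) in subclone 1. FITM2 was at 4.42, 4.53 and 5.08 RPKM and R3HDML had at most 1 read. Whether the reads came from the P1 or the P2 transcripts cannot be read from values given per gene.

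CEBPA, the C/EBP member linked to the resting, metabolically active hepatocyte, was highest in subclone 2. It was at 35.3 RPKM (32.0–38.9, 411 reads) in the parent, 40.5 RPKM (37.0–44.3, 484 reads) in subclone 1 and 49.3 RPKM (45.5–53.4, 604 reads) in subclone 2. The order ran from the parent through subclone 1 to subclone 2, and the interval of subclone 2 was clear of both others. Subclone 1 was 1.15-fold (1.00–1.31) and subclone 2 1.40-fold (1.23–1.59) the parent. The call for subclone 1 was marginal: its level interval overlapped that of the parent, and the lower bound of its fold was 0.997 with libraries scaled to the same sum of RPKM, 0.916 with ACTB and 0.966 with GAPDH. CEBPG, beside it on chromosome 19, was at 22.8, 20.7 and 24.9 RPKM, and LRP3, on its other side, was at 1.38 RPKM with 23 reads in the parent, 3 reads in subclone 1 and none in subclone 2. CEBPA-DT, the divergent transcript picked after its values were seen, was at 0.879, 0.856 and 1.76 RPKM, and strand was not marked by the kit. PEPD, the gene beyond CEBPG, was at 47.4, 57.3 and 54.8 RPKM, with both intervals against the parent above 1, and SLC7A10 was not listed.

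CEBPB, the C/EBP member of the acute-phase response and of liver regeneration, was at similar levels throughout. It was at 28.5 RPKM (25.0–32.4, 235 reads) in the parent, 31.5 RPKM (27.9–35.5, 267 reads) in subclone 1 and 30.3 RPKM (26.7–34.2, 263 reads) in subclone 2. All 3 intervals overlapped, with subclone 1 at 1.11-fold (0.925–1.32) and subclone 2 at 1.06-fold (0.888–1.27) the parental level. Its neighbours TMEM189, PTPN1 and FAM65C had intervals that included 1 against the parent in both subclones. The ratio of CEBPA to CEBPB was 1.24 (1.05–1.46), 1.29 (1.1–1.5) and 1.63 (1.41–1.89) in the parent, subclone 1 and subclone 2. Subclone 2 had 1.31-fold (1.05–1.64) the parental ratio, and subclone 1 1.04-fold (0.827–1.30).

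PROX1 was lowest in subclone 1. It was at 3.17 RPKM (2.31–4.26, 44 reads) in the parent, 0.773 RPKM (0.386–1.38, 11 reads) in subclone 1 and 2.47 RPKM (1.73–3.42, 36 reads) in subclone 2. The interval of subclone 1 lay below those of the parent and subclone 2, which overlapped each other. Subclone 1 held 4.11-fold (2.09–8.82) less PROX1 mRNA than the parent, with 0.484% of the 11370 genes at a lower log2 ratio, and subclone 2 held 3.19-fold (1.59–6.95) more than subclone 1. The ratio of subclone 2 to the parent was 0.777 (0.486–1.24). On chromosome 1 its neighbour RPS6KC1 was at 10.5, 11.2 and 9.41 RPKM and SMYD2 at 18.5, 12.6 and 14.0 RPKM, a ratio to the parent of 0.682 (0.521–0.889) in subclone 1 and 0.760 (0.587–0.981) in subclone 2. Further out, ANGEL2 was at 5.39, 6.41 and 5.71 RPKM and PTPN14 at 4.01, 5.21 and 3.65 RPKM, a fold of 1.30 (1.10–1.54) in subclone 1. PROX1 also marks lymphatic endothelium, of which PDPN and FLT4 had at most 1 read in any library, and LYVE1 was at 2.39, 0.948 and 0.756 RPKM. The genes whose ratios were nearest to those of PROX1, a search added after its values were seen, were FAM155B, CTXN1 and TPRXL, at 2.53, 2.25 and 6.56 RPKM in the parent and 0.643, 0.505 and 1.91 RPKM in subclone 1.

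ONECUT1 was at the limit of detection in all 3 libraries. It had 0 reads in the parent, which allows a level of up to 0.347 RPKM at 3 reads, 1 read in subclone 1 (0.113 RPKM) and 3 reads in subclone 2 (0.330 RPKM). No fold is given for these counts, and the log2 ratios of ONECUT1 given above depend on the constant added. ONECUT2, its paralog, was at 1.20, 0.712 and 1.18 RPKM, and it was lower in subclone 1 than in the parent by counting (ratio 0.593, 0.413–0.844). Of the neighbours of ONECUT1, ARPP19 was at 72.3, 73.3 and 72.7 RPKM, whereas KIAA1370 was at 10.4, 13.4 and 15.9 RPKM and WDR72 at 2.37, 3.41 and 5.37 RPKM, a fold of 2.27 (1.73–2.99) in subclone 2 for the latter, and UNC13C was not listed.

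**Figure D3:**
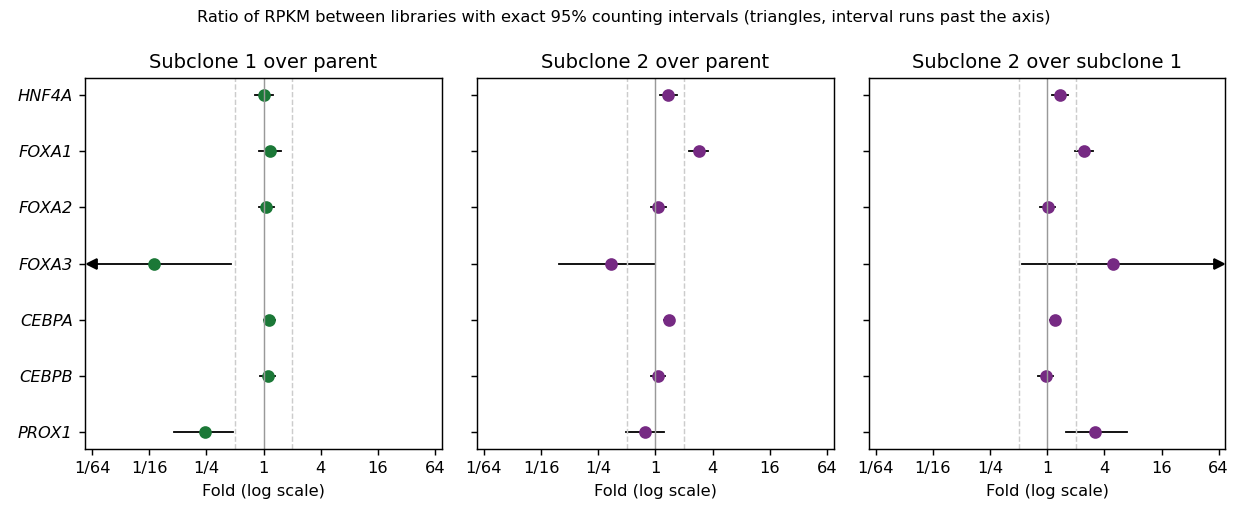
Ratio of RPKM between libraries on a log axis for the members other than ONECUT1, which had at most 3 reads, 1 panel per pair of libraries, with exact 95% counting intervals, dashed lines at 2-fold and triangles where an interval runs past the axis. For subclone 1 over the parent PROX1 lies at 0.243, and for subclone 2 over the parent FOXA1 lies at 2.85, while HNF4A, FOXA2, CEBPA and CEBPB lie between 1.01 and 1.40 in both.

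Counts of members past a 2-fold difference were read against all genes with a mean of at least 1 RPKM. Over the parent, 0 of 6 members were at least 2-fold higher in subclone 1, where 4.90% of the 11370 genes were, and PROX1 was the 1 member at least 2-fold lower, where 1.82% of genes were. In subclone 2 over the parent, FOXA1 was the 1 member at least 2-fold higher against 5.33% of genes, and 0 were at least 2-fold lower against 2.16%. In subclone 2 over subclone 1, FOXA1 and PROX1 were at least 2-fold higher against 1.42% of genes, and 0 members were at least 2-fold lower against 1.39%. With 6 members, each of these counts rests on single genes.

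Calls by the counting interval alone were more frequent in both the members and the background. For subclone 1 over the parent, the interval lay wholly above 1 for CEBPA and for 19.8% of 11239 genes, and wholly below 1 for PROX1 and for 18.9% of genes. For subclone 2 over the parent it lay above 1 for 3 of 6 members, CEBPA, FOXA1 and HNF4A, against 22.7% of genes, and below 1 for 0 members against 17.7%. For subclone 2 over subclone 1 it lay above 1 for 4 of 6 members, CEBPA, FOXA1, HNF4A and PROX1, against 11.5% of genes, and below 1 for 0 members against 8.38%. The median log2 ratio of the 6 members was 0.12, 0.28 and 0.36 for these comparisons, beside 0.00, 0.04 and 0.03 over the 11370 genes.

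Of 28 other liver transcription factors 25 were listed and 22 had a mean of at least 1 RPKM. This list and those below were chosen with earlier results of these data known. Of the 22, 6 were at least 2-fold higher in each subclone over the parent, and 1, TBX3, was lower in both. Of the 11370 genes with that mean, 4.90% were higher in subclone 1 and 5.33% in subclone 2, and 1.82% and 2.16% were lower. CREB3L3, a factor of the fasting response, was at 9.48, 30.6 and 48.0 RPKM in the parent, subclone 1 and subclone 2, a fold of 3.23 (2.60–4.04) and 5.06 (4.12–6.26). NR1H4, the bile acid receptor, was at 1.61, 10.8 and 9.34 RPKM with 9 reads in the parent, a fold of 6.71 (3.32–15.4) and 5.81 (2.85–13.4). PPARA, the receptor that drives fatty acid oxidation, was at 2.15, 5.48 and 6.04 RPKM. NR5A2 and NR2F1 were also at least 2-fold higher in both subclones, DBP in subclone 1 and NR1H3 in subclone 2. TBX3, a repressor active in hepatoblasts, was at 9.12, 2.93 and 3.87 RPKM.

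HHEX, GATA4 and GATA6 were within 2-fold of the parent in both subclones. HHEX, a homeodomain factor of the liver bud, was at 37.8, 37.1 and 45.3 RPKM, GATA4 at 4.17, 3.43 and 5.63 RPKM and GATA6 at 7.84, 9.56 and 10.7 RPKM. For subclone 2 over the parent, the intervals of HHEX (1.03–1.40) and GATA6 (1.08–1.74) lay wholly above 1 and that of GATA4 (0.970–1.89) did not. NR1I3 and NR0B2 were not listed in any library. The median log2 ratio over the 25 listed genes was 0.43 for both subclones against the parent, and 0.14 between subclone 2 and subclone 1, beside 0.00, 0.02 and 0.01 over all 16149 genes. The comparisons over the parent share its library.

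**Figure D4:**
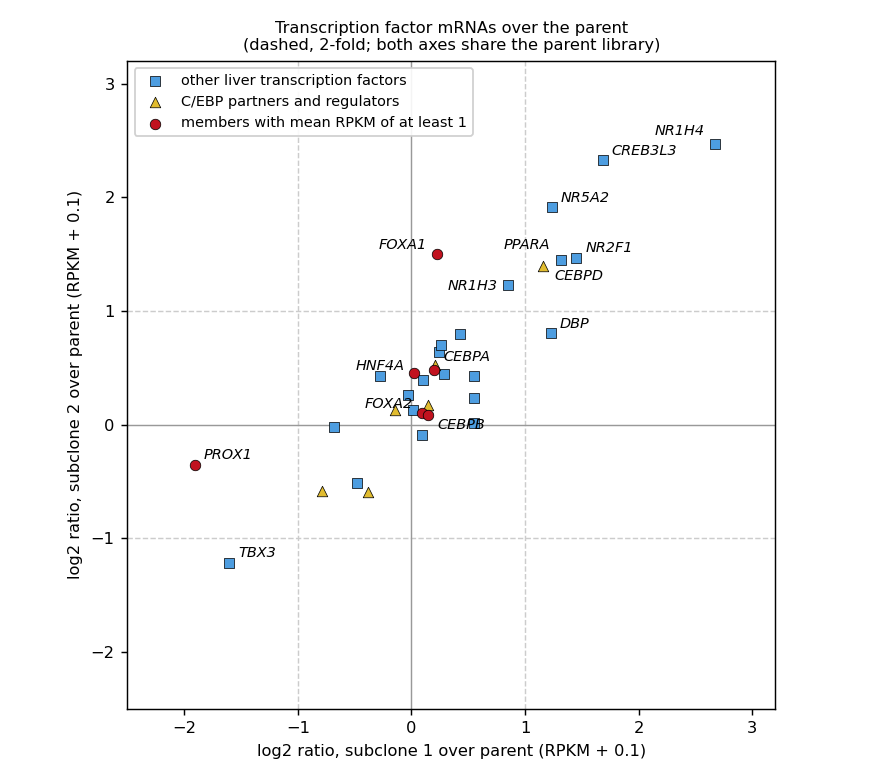
log2 ratio of RPKM + 0.1 over the parent in subclone 1 (horizontal) and subclone 2 (vertical) for the 6 members with a mean of at least 1 RPKM (circles), other liver transcription factors (squares) and C/EBP partners (triangles), dashed lines at 2-fold. FOXA1 lies at 0.23 and 1.5 and PROX1 at −1.91 and −0.35, off the diagonal on which both axes share the parent library, and NR1H4 lies at 2.67 and 2.47.

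Among the partners of the C/EBP factors, CEBPD stood out. CEBPD, a paralog induced in inflammation, was at 12.1 RPKM (115 reads), 27.2 RPKM (265 reads) and 32.0 RPKM (320 reads), a fold of 2.24 (1.80–2.82) in subclone 1 and 2.64 (2.13–3.30) in subclone 2. Of the 6 listed genes 0 were at least 2-fold lower in either subclone over the parent, against 1.82% and 2.16% of the 11370 genes. CEBPD was the 1 gene at least 2-fold higher, against 4.90% and 5.33%. Its level thus came close to that of CEBPB in subclone 2, while in the parent it was the lowest of CEBPA, CEBPB and CEBPD. TRIB1, whose protein leads C/EBP alpha to degradation, was at 69.0, 39.9 and 46.0 RPKM, a ratio to the parent of 0.578 (0.525–0.637) and 0.667 (0.608–0.731). ATF4, a dimer partner of the stress response, was at 101, 117 and 145 RPKM, and DDIT3, which blocks C/EBP binding, at 44.5, 49.2 and 50.1 RPKM. CEBPE and TRIB2 were not listed, and the median log2 ratio of the list was 0.00, 0.15 and 0.22.

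Of 10 coactivators and antagonists of HNF4A 9 were listed and 0 were past 2-fold in any comparison. HNF4G, its paralog, was at 8.75, 10.3 and 12.5 RPKM, a fold of 1.43 (1.17–1.76) in subclone 2 over the parent. EP300 and MED1 were slightly lower than the parent by counting in both subclones. Their ratios in subclone 1 were 0.811 (0.720–0.913) and 0.846 (0.745–0.961). In subclone 2 they were 0.864 (0.770–0.970) and 0.872 (0.769–0.989). The repressors SNAI1 and SNAI2, which act against HNF4A in epithelial cells, were at 9.96, 13.4 and 8.73 RPKM and at 8.23, 10.8 and 7.62 RPKM. Both were lower in subclone 2 than in subclone 1 by counting, with ratios of 0.653 (0.477–0.891) and 0.706 (0.519–0.958). PPARGC1A, the fasting coactivator, was not listed. The median log2 ratio of the list was −0.17, −0.11 and 0.19.

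Of 18 HNF4A-regulated genes 12 were listed and 4 had a mean of at least 1 RPKM. MTTP, which loads lipid onto lipoproteins, was at 2.50, 9.54 and 17.0 RPKM, and APOB, the protein of those particles, at 0.300, 1.23 and 4.17 RPKM. TF, the transferrin gene, was at 5.71 RPKM in the parent, 30.3 RPKM in subclone 1 and 5.88 RPKM in subclone 2, so that it was high in subclone 1 alone of the 3 libraries. APOA1 and SERPINA1 had at most 4 reads in any library, TTR 1 read in all, and APOA2, F9, CYP3A4, OTC, G6PC and PCK1 were not listed. Of the 4 with a mean of at least 1 RPKM, 3 were at least 2-fold higher in subclone 1 over the parent, against 4.90% of the 11370 genes. In subclone 2, 2 of them were higher, against 5.33%. In either subclone 0 were lower, against 1.82% and 2.16%. The medians over the 12 listed genes were 1.16, 0.56 and −0.12 in log2. Leaving out genes with at most 3 reads in both libraries and setting a library at 0 to 3 reads, they were 1.60, 1.24 and 0.29 over 6, 5 and 7 genes.

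ALB, the albumin gene, which carries sites for both families, was at 2.46 RPKM (25 reads) in the parent, 49.5 RPKM (517 reads) in subclone 1 and 68.8 RPKM (736 reads) in subclone 2, a fold of 20.1 (13.5–31.4) and 28.0 (18.8–43.5). Of the 9 FOXA-regulated genes 7 were listed and 3 had a mean of at least 1 RPKM. Of these 3, ALB and IGFBP1 were at least 2-fold higher in each subclone over the parent, against 4.90% and 5.33% of the 11370 genes. In either subclone 0 were lower, against 1.82% and 2.16%. IGFBP1 was at 13.8, 28.5 and 34.9 RPKM. AFP, the fetal albumin relative, was at 2.41, 4.16 and 4.27 RPKM. The median log2 ratio of the 7 listed genes was 1.04, 1.33 and 0.20. With libraries at 0 set to 3 reads it was 1.08, 1.45 and 0.20 over 5, 4 and 5 genes.

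Of the 16 C/EBP-regulated genes 12 were listed and 7 had a mean of at least 1 RPKM. Of these 7, 5 were at least 2-fold higher in subclone 1 over the parent and 4 in subclone 2. Of the 11370 genes with that mean, 4.90% and 5.33% were. LCN2, an iron-scavenging acute-phase protein, was at 37.4, 269 and 543 RPKM, and complement C3 at 0.917, 8.80 and 11.1 RPKM. SAA1, which has near-identical copies and is uncertain for that reason, had 0, 8 and 8 reads. IL8 was at 10.1, 20.5 and 17.7 RPKM. HAMP, the hepcidin gene, was the 1 gene of the list at least 2-fold lower in subclone 2, on 3 reads in the parent and 1 in subclone 2 (ratio 0.317, 0.00603–3.94), and CRP and IL6 were not listed. The median of the 12 listed genes was 2.01, 2.39 and 0.10 in log2. With libraries at 0 set to 3 reads it was 1.33, 1.44 and 0.23 over 9, 8 and 10 genes. Of 4 ONECUT1-regulated genes, TTR was the 1 listed, with 1 read in subclone 2, and PFKFB1 and G6PC were not. Whether the levels of the members had a part in these differences was not tested.

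**Figure D5:**
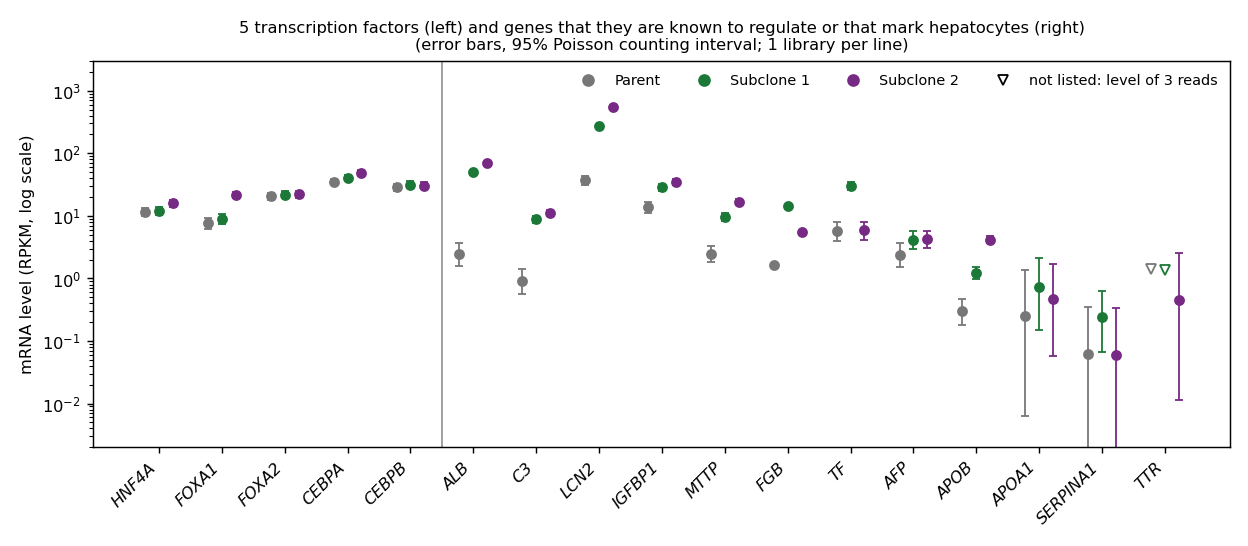
mRNA level in RPKM on a log axis for HNF4A, FOXA1, FOXA2, CEBPA and CEBPB (left of the line) and for genes they are known to regulate or that mark hepatocytes (right), 1 library per line with 95% Poisson counting intervals, and open triangles at the level of 3 reads where a gene was not listed. The 5 factors span 7.63 to 49.3 RPKM, whereas ALB goes from 2.46 RPKM in the parent to 68.8 RPKM in subclone 2 and TTR is listed in subclone 2 alone of the 3.

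The labelled cell type was checked against marker genes. All 10 hepatocyte markers were listed, 9 of them in the parent and 8 in each subclone, with a summed level of 12.1 RPKM in the parent, 97.6 RPKM in subclone 1 and 86.4 RPKM in subclone 2. ALB, TF and FGB, a fibrinogen chain, at 1.66, 14.5 and 5.60 RPKM, held most of that sum, and APOA1, SERPINA1, CPS1, ASGR1 and TTR were at or near 0 in all 3 libraries. Of the 5 with a mean of at least 1 RPKM, 4 were at least 2-fold higher in subclone 1 over the parent, against 4.90% of the 11370 genes. In subclone 2, 3 of them were higher, against 5.33%. In either subclone 0 were lower, against 1.82% and 2.16%. Over the 10 listed markers the median log2 ratio was 1.16, 0.38 and −0.28. With libraries at 0 set to 3 reads it was 2.06, 1.70 and −0.57 over 6, 5 and 6 genes. A smaller number of cells of a type and less mRNA per cell cannot be told apart in such bulk libraries.

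Markers of other cell types also differed between the libraries. Of 8 bile duct markers 6 were listed, with a summed level of 872, 673 and 488 RPKM. SPP1, the osteopontin gene, was at 603, 390 and 199 RPKM, KRT7 at 14.4, 3.47 and 6.04 RPKM and KRT19 at 178, 229 and 229 RPKM, and CFTR was not listed. The bile duct list had 0 genes at least 2-fold higher over the parent, against 4.90% and 5.33% of the 11370 genes. KRT7 was lower in both subclones and SPP1 in subclone 2, against 1.82% and 2.16% of genes. The medians of the list were −0.65, −0.20 and 0.07. Endothelial markers, 9 of 10 listed, summed to 7.55, 12.9 and 8.53 RPKM with CDH5, VWF, PDPN and FLT4 at or near 0 and CLDN5 not listed. PECAM1 was at 3.33, 9.81 and 4.46 RPKM, a fold of 2.95 (1.98–4.48) in subclone 1, and KDR was at 1.36, 1.93 and 3.08 RPKM, a fold of 2.26 (1.52–3.41) in subclone 2. LYVE1 was lower, with a ratio to the parent of 0.397 (0.178–0.826) in subclone 1 and 0.317 (0.131–0.694) in subclone 2. TEK, with 8 reads in the parent and 1 in subclone 2, had a ratio of 0.119 (0.00268–0.886) there. Fibroblast markers, 6 of 7 listed, summed to 15.7, 31.2 and 24.3 RPKM, most of it LUM, with COL1A2 and THY1 near 0 and PDGFRB not listed. DCN was higher in the subclones, at 0.773, 4.42 and 2.75 RPKM, and COL3A1 was lower, at 4.42, 2.21 and 0.463 RPKM. Leukocyte markers, 4 of 6 listed, summed to 76.6, 114 and 101 RPKM, nearly all of it CD68, with PTPRC at 1 read or none and CD3E and AIF1 not listed. By the study's methods the subclones were grown from single cells and the parent is a cell line, so other cell types were not part of the design. Whether the levels of these genes bear on the members' values was not tested.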

How the data were processed

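Libraries of mRNA from 3 lines, 1 each, were made with the Illumina TruSeq kit from Trizol RNA. The authors deposited RPKM per gene, with Entrez number and symbol, and listed only genes above 0, so a missing gene was set to 0. The submitters' processing notes name hg19, and the aligner, the counting tool, the annotation and the handling of reads shared between genes are not given in the sources used here.

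Since the RPKM of a gene are whole multiples of 1 read's worth, library totals and reads were recovered for 98.8% of the 11370 genes with a mean of at least 1 RPKM. In simulated data the totals were recovered, and 93.4% of resolved genes got their true reads. Of 13578 recovered lengths compared, 82.8% lay within 10% of a transcript, and those of the members differed by at most 9.15%. Levels carry exact Poisson intervals and ratios exact Clopper-Pearson intervals at 95%. log2 ratios used RPKM + 0.1, and the floor for a gene at 0 was 3 reads. No test or p-value was computed. Named genes were drawn from all 8 members, listed genes of 3 lists of liver transcription factors, C/EBP partners and HNF4A cofactors, the highest and most different genes and the markers at 0 of the other lists, the 2 nearest protein-coding genes on each side of a member, and the 3 nearest in ratio to FOXA3, which had the largest pair of ratios with 0.1 RPKM added. The members and lists were chosen with earlier results of these data known, and lists overlap. Some genes of the lists are counted but not reported here by name. RefSeq promoters (GRCh38.p14) were matched by gene number. Alternatives were other pseudocounts, filters, folds and library scalings. Python 3.11.15, pandas 2.3.3, numpy 2.4.6 and scipy 1.17.1 were used.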

Additional observations from a re-analysis of the deposited data

How the results depend on the processing

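No paired analysis was possible because a group holds a single library, nor could any library be left out. All 168 log2 ratios of members under another pseudocount or library scaling stayed within their counting interval. For low genes this says little, as those intervals are wide and without an upper bound for ONECUT1 over the parent. In subclone 1 over the parent, ONECUT1 went from 0.15 to 3.62 and FOXA3 from −3.73 to −1.19. No 2-fold ratio changed sign, which a pseudocount cannot bring about and scalings this small could not either. For FOXA1, subclone 2 against the parent lay between 1.40 and 1.56 in log2, and for PROX1, subclone 1 against the parent lay between −2.02 and −1.24. The ratios of HNF4A and FOXA2 in subclone 1 over the parent took both signs, from −0.11 to 0.03 and from −0.04 to 0.10, as did those of FOXA2 and CEBPB in subclone 2 over subclone 1, from −0.04 to 0.14 and from −0.11 to 0.07.

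Dropping the filter on RPKM added FOXA3 and ONECUT1. Then 1 member was at least 2-fold higher and 2 lower in subclone 1 over the parent. For subclone 2, 2 were higher and 1 lower over the parent, and 4 were higher over subclone 1. The added calls were FOXA3 and ONECUT1, with at most 14 reads in any library. All-gene counts rose as well, out of 16149 genes. Subclone 1 had 1523 genes past 2-fold upward from the parent and 884 downward. Subclone 2 had 1553 and 941 relative to the parent, and 842 and 902 relative to subclone 1. A mean of at least 5 RPKM drops PROX1. With it, 0 members were at least 2-fold lower in subclone 1 over the parent and 1 was higher in subclone 2 over subclone 1. With a pseudocount of 1, PROX1 was still lower in subclone 1 over the parent, and FOXA1 was the 1 member higher in subclone 2 over subclone 1. Counted in reads rather than RPKM, FOXA1 made up 31.1%, 34.5% and 55.5% of the FOXA reads in the parent, subclone 1 and subclone 2, and FOXA2 65.2% and 43.6% in the subclones, and CEBPA over CEBPB was 1.75, 1.81 and 2.30, since the genes differ in length. The bile duct median of subclone 2 over subclone 1 was 0.19 after division by ACTB (0.1946) or GAPDH (0.1866). Division by ACTB moved the median of all genes to −0.13 for subclone 1 over the parent, and the share of higher among 2-fold calls to 57.8% from 72.9%. For subclone 2 over subclone 1 that share was 63.9% with ACTB and 62.6% with GAPDH, from 50.5%. The background of genes at least 2-fold above the parent counted 557 for subclone 1 and 606 for subclone 2, but 347 and 380 with a pseudocount of 1. Depth limits FOXA3 and ONECUT1, for which 3 reads in the parent would be 0.327 and 0.347 RPKM. With a pseudocount of 0.01 RPKM, ONECUT1 took the place of FOXA3 as the member with the largest pair of ratios to the parent. The interval of CEBPA in subclone 1 over the parent included 1 with libraries scaled to the same sum of RPKM, to ACTB or to GAPDH.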

Other observations

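Transcription factors of other endodermal organs were listed beside the hepatocyte factors. SOX2, a factor of foregut and of pluripotent cells, was at 21.3 RPKM (241 reads) in the parent, 13.9 RPKM (161 reads) in subclone 1 and 17.6 RPKM (209 reads) in subclone 2. CDX2, the intestinal homeodomain factor, was at 1.49, 2.18 and 3.14 RPKM, a fold of 2.10 (1.09–4.28) in subclone 2 over the parent on 14 and 31 reads. PDX1 had 1, 1 and 7 reads, and CDX1, NKX2-1, SOX17 and ISL1 were not listed. Against the parent, 0 of the listed genes with a mean of at least 1 RPKM were past 2-fold in subclone 1. CDX2 was at least 2-fold higher in subclone 2, as were 5.33% of the 11370 genes. The medians over the 3 listed genes were −0.02, 1.02 and 0.51 in log2. Of 7 fetal liver and progenitor markers 4 were listed, AFP was the 1 with a mean of at least 1 RPKM, and DLK1, GPC3 and PROM1 were not listed. Their summed level was 3.69, 4.42 and 4.50 RPKM, with medians of −0.01, −0.12 and 0.01.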
